A study of Mus musculus with 20 samples.

Results

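The genotype by diet interaction asks, gene by gene, whether the liver of mice without the liver X receptors (LXR) answered a Western diet as the liver of wild-type mice did. All 20 of the series' 20 liver samples enter it. For each gene the diet response of the wild-type mice, Western minus normal, was taken from the diet response of the knockout mice, so a positive value means that the knockout response was the higher and a negative value that it was the lower. The 4 groups of 5 male mice were wild-type on normal chow, wild-type on the Western diet, LXR alpha/beta double knockout on normal chow and LXR alpha/beta double knockout on the Western diet. Every mouse was 28 weeks old and of a mixed Sv129/C57Bl6J background, and the diets were fed for 7 weeks. The labels name no promoter or cell type that limits the deletion, and they name no shared litter. Because the background is mixed, strain differences between the wild-type and knockout mice cannot be told apart from the deletion.

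LXR alpha (Nr1h3) and LXR beta (Nr1h2) are nuclear receptors that bind oxysterols, the oxidised forms of cholesterol. In the liver they raise transcription of genes that send cholesterol into bile, such as the half-transporters Abcg5 and Abcg8, and of Srebf1, whose product SREBP-1c switches on fatty acid synthesis. A second arm of sterol control works without them: when cholesterol builds up in the endoplasmic reticulum, INSIG proteins hold the precursor of SREBP-2 there and the genes of cholesterol synthesis fall silent. Western diets are rich in fat and cholesterol, which bears on both arms.

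RNA from each liver was hybridised to its own one-colour array, and a value here is the log2 of the processed signal less the log2 of that array's 75th percentile. A difference of 1 is thus 2-fold, and levels of different genes are not set against each other because probes differ in brightness. Both targeted genes were low in all 10 knockout arrays: Nr1h3 averaged 4.53 and 4.29 in the wild-type groups against -4.52 and -4.71 in the knockout groups, and Nr1h2 averaged 0.85 and 0.69 against -4.54 and -4.73. All 15 hepatocyte genes tested, albumin (Alb) and transthyretin (Ttr) among them, were well above background in every group. The knockout arrays on the Western diet had the brightest 75th percentiles, 339.7 to 435.1 against 170.3 to 330.8 in the other groups, and arrays within a group correlated at 0.9504 to 0.9902. Each sample is a piece of whole liver, so fewer cells of a type and less RNA per cell cannot be told apart. The labels give separate mice for the 5 samples of a group.

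Of 17540 genes tested, 4839 had diet responses that differed between genotypes at an adjusted p under 0.05 (limma, all 20 arrays, Benjamini-Hochberg adjustment), which is 27.6%. The knockout response was the higher in 2259 of them (12.9%) and the lower in 2580 (14.7%), so 46.7% of the calls were on the higher side. That share was 62.7% with another background correction. A difference of at least 2-fold was also seen in 2811 genes (16%). The diet alone moved 1047 genes in wild-type mice (5.97%, with 3.25% up and 2.71% down) and 8845 in knockout mice (50.4%, with 22.6% up and 27.8% down). The median interaction over all genes was -0.078. Across genes the diet responses of the genotypes, which share no array, had a correlation of 0.43, given as a description since genes are not independent replicates, and 66.3% of genes had the same sign in both.

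The calls of the single diet responses sorted the 4839 genes into classes. Gained genes, called in the knockout and not in the wild type, numbered 4229 (24.1% of genes tested and 87.4% of the interaction genes), 2046 of them rising and 2183 falling on the Western diet. Lost genes, called in the wild type and not in the knockout, numbered 133 (0.758% of genes tested), of which 87 rose and 46 fell in wild-type mice. Amplified genes, called in both with the larger response in the knockout, numbered 218 (1.24%), of which 70 rose (0.399%) and 148 fell (0.844%). Blunted genes, smaller in the knockout, were 12 (0.0684%), of which 7 rose (0.0399%) and 5 fell (0.0285%). Reversed genes, called in both with opposite signs, were 61 (0.348%), 42 of which rose in wild-type mice and fell in knockout mice. A further 186 genes (1.06%) had an interaction with neither single response called. A missing call is not an absent response: the 95% interval of the uncalled response lay within 1 log2 unit of 0 for 103 of the 133 lost and 3306 of the 4229 gained genes.

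**Figure D1:**
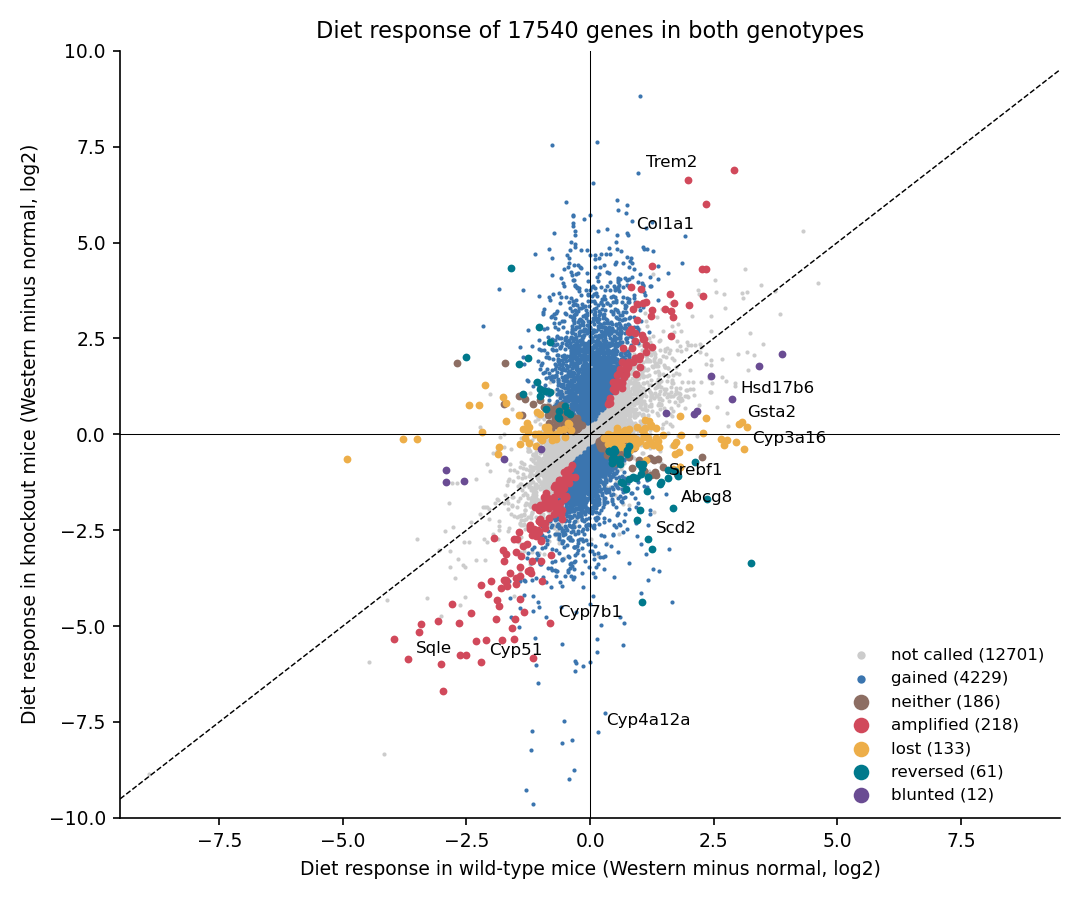
Diet response (Western minus normal, log2) of each of 17540 genes in wild-type mice on the x axis and in knockout mice on the y axis, coloured by class, with the dashed line marking equal responses. The 4229 gained genes spread up and down along the y axis near an x value of 0, the 218 amplified genes lie beyond the dashed line in both corners, and the 61 reversed genes lie in the upper left and lower right.

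Most of these differences appeared as a genotype gap on the Western diet. Knockout and wild-type mice differed on the Western diet alone for 4364 of the 4839 genes, on the normal diet alone for 266, on both diets in opposite directions for 124 and on neither for 85, counting only gaps that point the way the interaction needs. The lost genes were divided differently: 87 of 133 differed on the Western diet alone and 33 on the normal diet alone. These gaps use the same arrays as the interaction and describe it rather than test it again. Over all genes, a genotype gap in either direction was called in 57.7% on the Western diet and in 19.7% on the normal diet. More gaps on the Western diet are thus not particular to the interaction genes.

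Most LXR target genes with a called difference responded lower in the knockout. Of 19 tested, 11 had a lower response in the knockout and 2 a higher one, beside 14.7% and 12.9% of all genes. The list's median response was 0.357 in wild-type and -0.773 in knockout mice, with a median interaction of -1.031. Its members were 3 reversed genes (Abcg8, Srebf1, Rnf145), 2 lost (Abcg5, Abca1), 7 gained, 1 with neither response called (Cd5l), and 6 not called for the interaction.

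Abcg8, which pairs with Abcg5 to pump cholesterol into bile, was measured at 0.43, 0.59, 0.42, 0.85 and 0.69 in wild-type mice on chow and at 2.20, 1.87, 1.96, 2.66 and 2.66 on the Western diet. In knockout mice it was at 0.64, 1.29, 0.75, -0.33 and 0.53 on chow and at -0.57, -2.17, -1.52, -0.79 and -1.67 on the Western diet. The genotypes overlapped on chow, and the Western diet sent the wild-type mice above every chow mouse and the knockout mice below every one. The response was a 3.18-fold rise in the wild type and a 3.78-fold fall in the knockout, an interaction of -3.59 ± 0.42 (SE, n = 5 per group, limma adjusted p 8.22e-06). Its partner Abcg5 rose by 1.82 in wild-type mice, with 4.73, 5.20 and 4.76 on chow against 6.49, 6.31, 7.24 and 6.83 on the Western diet, the other arrays having outlier spots that were dropped. Knockout arrays with a value read 5.12, 6.03, 5.71 and 4.47 on chow and at 3.98, 4.44 and 4.99 on the Western diet. The chow and Western values of the knockout overlapped, and the interaction was -2.69 ± 0.51 (SE, limma adjusted p 0.002). The probes lie on chromosome 17 in mm8 coordinates, Abcg8 at 84607731 to 84607790 and Abcg5 at 84566590 to 84566649.

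Abcg5 and Abcg8 are read in opposite directions from neighbouring starts. The whole stretch between the starts, 109 bases at chr17:84683012-84683120 (GRCm38.p6, plus strand, from RefSeq), is shown because both genes sit on it and both rose with the diet in wild-type mice and not in knockout mice. It is printed in lower case, since it holds no whole CCAAT on either strand. The wider promoter windows of both genes, 250 bases before to 50 after each start, do hold one. For Abcg8 the nearest match ends 110 bases before the start.
Abcg5 to Abcg8: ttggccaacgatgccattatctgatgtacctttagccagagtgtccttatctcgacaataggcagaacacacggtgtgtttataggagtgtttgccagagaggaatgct
The 5 LXR targets called as lost or reversed thus include this divergent pair and 3 genes from other places in the genome.

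Srebf1 encodes SREBP-1, the activator of fatty acid synthesis genes. It was at 5.13, 5.16, 5.64, 5.47 and 4.80 in wild-type mice on chow and at 7.08, 6.12, 5.85, 7.27 and 7.06 on the Western diet. Knockout mice had 4.49, 4.48, 4.77, 4.56 and 4.52 on chow and 3.18, 3.48, 3.24, 3.15 and 3.62 on the Western diet. All 4 groups were separate, in the order wild-type Western, wild-type chow, knockout chow, knockout Western. The 2.69-fold rise of the wild type became a 2.35-fold fall, an interaction of -2.67 ± 0.33 (SE, n = 5, limma adjusted p 1.58e-05). The probe lies on chromosome 11, 60015907 to 60015966 (mm8). Rnf145, a ubiquitin ligase of the endoplasmic reticulum, was at 0.17, 0.26, 0.53, 0.22 and 0.26 on chow and 1.58, 0.78, 1.48, 1.60 and 1.38 on the Western diet in wild-type mice. Knockout mice were at 0.52, 0.84, 0.55, 0.46 and 0.67 and then 0.02, -0.13, -0.41, -0.48 and 0.16. The diets did not overlap within either genotype, and the interaction was -1.85 ± 0.22 (SE, n = 5, limma adjusted p 9.49e-06).

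Abca1, the exporter that loads cholesterol onto apolipoprotein A-I, had a much smaller difference. It was at 3.60, 3.55, 3.41, 3.37 and 3.18 in wild-type mice on chow and at 4.08, 3.56, 4.01, 3.95 and 4.05 on the Western diet, where 1 mouse overlapped the chow mice. The knockout groups, 3.01, 3.18, 3.02, 3.44 and 3.55 on chow and 3.25, 3.22, 3.13, 3.42 and 3.07 on the Western diet, overlapped fully. The interaction was -0.53 ± 0.18 (SE, limma adjusted p 0.0371), and 20 of 34 alternative settings did not call it, with adjusted p from 0.0112 to 0.746. Among the 6 targets not called, Abcg1, another sterol exporter, rose in both genotypes, by 1.78 and 2.87, and its interaction of 1.09 has a 95% interval of 0.23 to 1.94 before adjustment. Cyp7a1, which starts bile acid synthesis, had an interaction of -4.15 with a wide interval of -7.49 to -0.80, and its other probe was called, at -3.88 (limma adjusted p 0.005). The intervals of Pltp (-1.29 to 1.35), Apoe (-0.69 to 0.25), Lpl (-1.61 to 0.30) and Mylip (-0.34 to 0.82) bound how far their responses can have differed. Lpl, a lipase that frees fatty acids from lipoproteins, rose by 4.60 in wild-type and by 3.95 in knockout mice. The 2 targets on the higher side were Arl4c, a small GTPase, at 2.10 ± 0.41 (SE), whose other probe was not called at 1.01, and Smpdl3a, a phosphodiesterase, at 0.55 ± 0.19 (SE).

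**Figure D2:**
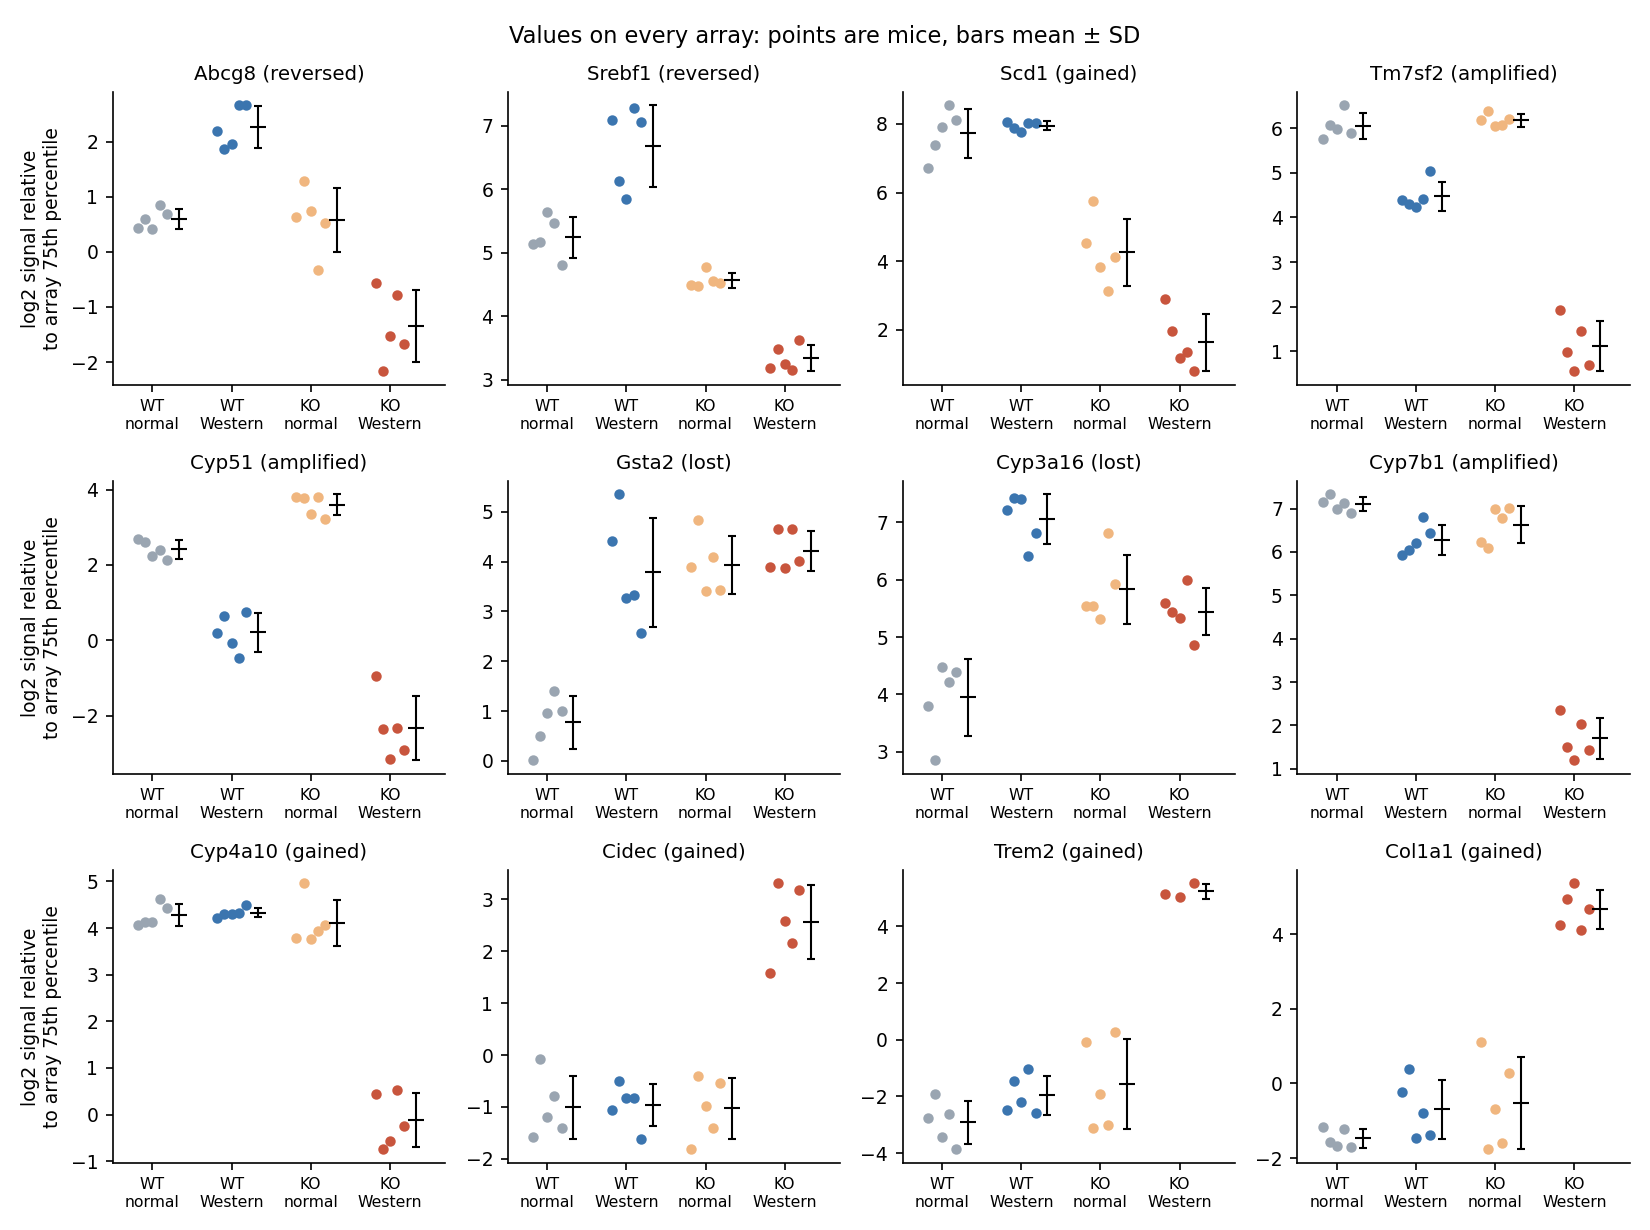
Log2 signal relative to the array's 75th percentile for 12 genes on every array, by genotype (WT, wild-type; KO, knockout) and diet; points are mice and bars the mean ± SD. Abcg8 and Srebf1 move up in wild-type and down in knockout mice, Tm7sf2 and Cyp51 fall in both and farther in the knockout, Gsta2 and Cyp3a16 have a called rise in wild-type and not in knockout mice, and Cidec, Trem2 and Col1a1 in knockout and not in wild-type mice.

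Genes of cholesterol synthesis and uptake fell on the Western diet in both genotypes and fell farther without LXR. Of 25 tested, 22 had a lower response in the knockout and 0 a higher one, against 14.7% and 12.9% of all genes. The wild-type response was called downward in 23 of them, beside 2.71% of all genes, and the knockout response in all 25, beside 27.8%. Neither response was called upward in any member. The median response was -1.704 in wild-type and -3.704 in knockout mice, and the median interaction -1.685. By class, 20 were amplified and 2 gained, Acat2 among them. The 3 members without a call were Srebf2, which encodes SREBP-2, at -0.41 ± 0.20 (SE), Mvd at -0.97 ± 0.48 (SE) and Dhcr7 at -0.64 ± 0.35 (SE), each by its brightest probe. Dimmer probes were called lower for Srebf2, at -1.08 (limma adjusted p 0.00426) and -0.98, and for Dhcr7, at -1.12 (limma adjusted p 0.0184). All 25 were above background on all 20 arrays.

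The added fall came about in different ways along the pathway, some genes differing between genotypes on the Western diet and others on both diets. Tm7sf2, a sterol reductase late in the pathway, was at 5.75, 6.07, 5.97, 6.51 and 5.90 in wild-type chow mice and at 4.38, 4.30, 4.23, 4.41 and 5.04 in wild-type Western mice. Knockout mice had 6.17, 6.39, 6.04, 6.06 and 6.20 on chow, overlapping the wild type, and 1.92, 0.99, 0.55, 1.46 and 0.69 on the Western diet, below every other mouse. The fall was 2.97-fold in the wild type and 33.1-fold in the knockout, an interaction of -3.48 ± 0.31 (SE, n = 5, limma adjusted p 6.18e-07).

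Other enzymes differed between genotypes on both diets, in opposite directions. Cyp51, the lanosterol demethylase, was at 2.70, 2.61, 2.24, 2.39 and 2.12 in wild-type mice on chow and 0.20, 0.64, -0.08, -0.48 and 0.75 on the Western diet. Knockout mice fell from 3.81, 3.78, 3.35, 3.80 and 3.23 to -0.95, -2.35, -3.15, -2.34 and -2.91. The knockout was thus above every wild-type mouse on chow and below every one on the Western diet, and the interaction was -3.73 ± 0.45 (SE, n = 5, limma adjusted p 1.32e-05). Idi1, the isomerase of the isoprenoid branch, fell from 5.66, 5.30, 4.93, 5.24 and 4.69 to 2.32, 2.89, 2.42, 1.95 and 3.13 in the wild type. The knockout fell from 6.50, 6.27, 6.44, 6.77 and 6.23 to 2.20, 0.70, -0.10, 0.52 and 0.11, where 1 knockout mouse overlapped the wild-type range. The interaction of Idi1 was -3.14 ± 0.47 (SE, limma adjusted p 9.64e-05). Over the list, the knockout was higher on chow for 11 of 25 genes and lower on the Western diet for 19 of 25, beside 11.3% and 32.7% of all genes. On chow the genotypes differed in 19.7% of all genes, with 8.39% lower in the knockout, and 0 of the 25 were lower there. Insig1, the sterol-sensing anchor of the SREBP precursors, had -2.28 ± 0.55 (SE).

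**Figure D3:**
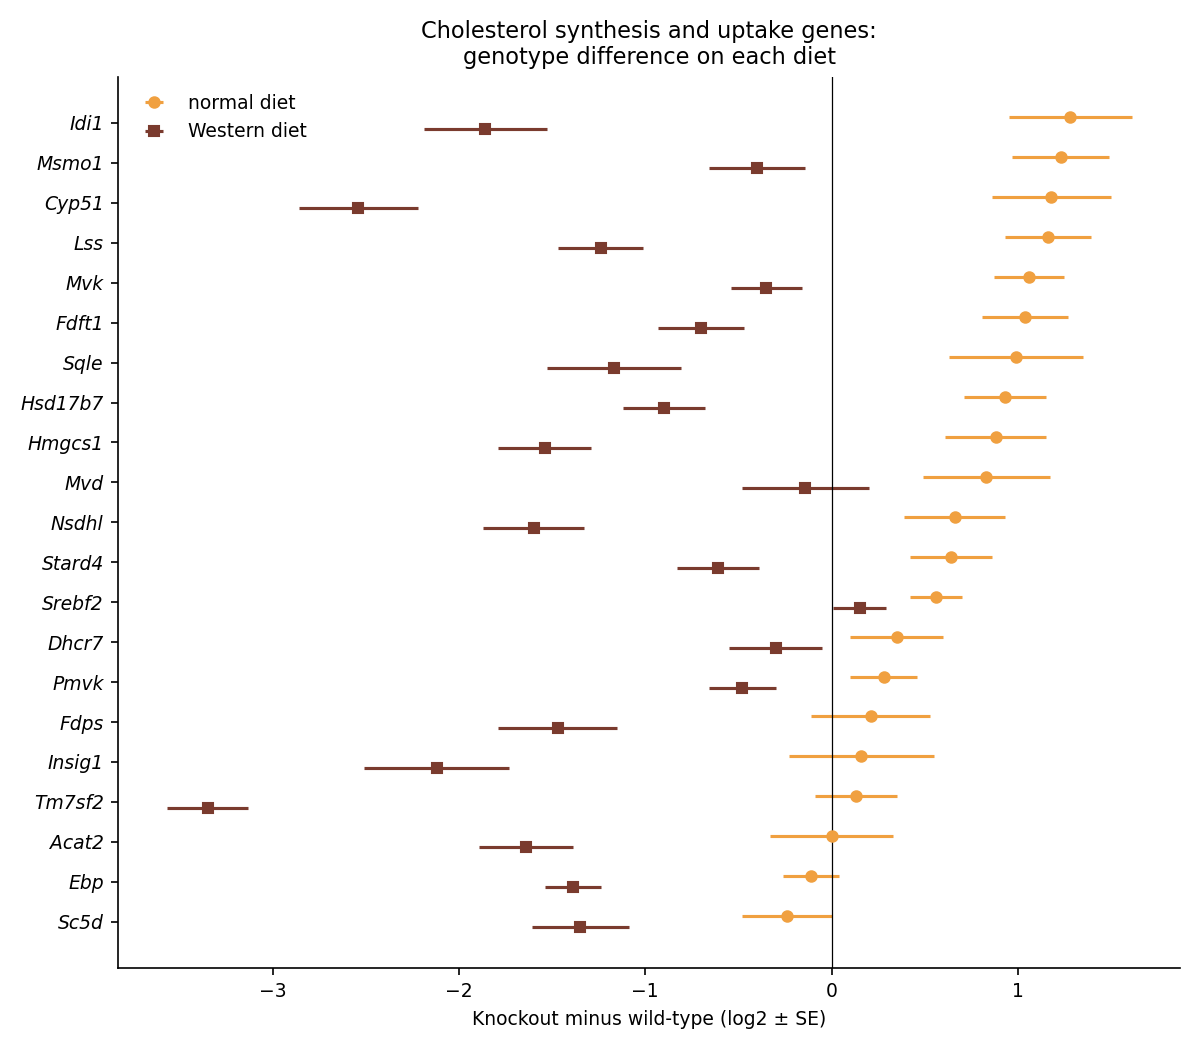
Knockout minus wild-type difference (log2 ± SE, 5 mice per group) of 21 cholesterol synthesis and uptake genes on the normal diet (circles) and on the Western diet (squares). Idi1 stands farthest to the right on the normal diet at 1.28 and left of 0 on the Western diet at -1.86, while Tm7sf2 is near 0 on the normal diet at 0.13 and far left on the Western diet at -3.35.

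Promoter windows from RefSeq (GRCm38.p6, 250 bases before to 50 after each start) were found for 17 of the 25 cholesterol genes. CCAAT, the core of the box bound by NF-Y, a factor that works beside SREBP at sterol-controlled promoters, was searched on both strands. It occurred in 16 of the 17 genes (94.1%) and in 41.1% of all 27025 genes with a window. Amplified genes that fell, which include the 20 amplified cholesterol genes, had it in 62% (67 of 108 with a window). Gained genes had it in 43.9% where they fell and in 37.1% where they rose. Reversed genes had it in 24 of 35 (68.6%) that rose in wild-type mice and in 10 of 14 (71.4%) that fell there. The LXR target list had it in 9 of 13 (69.2%) and the fatty acid synthesis list in 14 of 20 (70%). TCACNCCAC, a sterol regulatory element of the classical type, was in 1 of the 17 (5.88%) and in 1.44% of all genes, and these letters cover only 1 form of that element. Below are the 120 bases before the start of 5 amplified genes, read 5′ to 3′ on the gene's own strand, with CCAAT or its reverse complement ATTGG in capitals. They show how near to the start the match lies in these 5 genes only, which were picked for printing. In Insig1 and Pmvk, also amplified, the nearest match ended 212 and 132 bases before the start.
Tm7sf2: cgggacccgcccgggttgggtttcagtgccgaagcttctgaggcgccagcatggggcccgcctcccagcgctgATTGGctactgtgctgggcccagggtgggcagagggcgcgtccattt
Cyp51: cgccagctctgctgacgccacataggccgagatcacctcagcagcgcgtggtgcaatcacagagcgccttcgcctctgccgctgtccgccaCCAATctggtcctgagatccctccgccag
Idi1: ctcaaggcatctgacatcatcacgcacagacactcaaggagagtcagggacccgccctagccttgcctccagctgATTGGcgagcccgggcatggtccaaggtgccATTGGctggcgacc
Hmgcs1: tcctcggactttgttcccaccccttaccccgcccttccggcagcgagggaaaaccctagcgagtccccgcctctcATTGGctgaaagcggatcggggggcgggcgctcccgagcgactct
Lss: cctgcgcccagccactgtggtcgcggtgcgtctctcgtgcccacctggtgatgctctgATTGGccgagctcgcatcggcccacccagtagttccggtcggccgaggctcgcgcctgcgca
The stretches lie at chr19:6067851-6067970 (minus strand), chr5:4104698-4104817 (minus), chr13:8885486-8885605 (plus), chr13:119690231-119690350 (plus) and chr10:76531485-76531604 (plus). The nearest match ends 43 bases before the start in Tm7sf2, 25 in Cyp51, 10 in Idi1, which has 2 matches, 41 in Hmgcs1, the synthase that opens the pathway, and 58 in Lss, the lanosterol synthase. A match is a description of these letters and not a measured binding site.

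Fatty acid synthesis genes also responded lower in the knockout. The list shares Srebf1, Scd1, Fasn and Mlxipl with the LXR targets, so those 4 calls count in both. Of 24 tested, 11 were lower and 0 higher for the interaction, beside 14.7% and 12.9% of all genes, with a median of -1.047 and median responses of -0.51 in wild-type and -1.47 in knockout mice. Scd1, the main desaturase of the liver, was at 6.70, 7.37, 7.92, 8.54 and 8.12 on chow and 8.06, 7.87, 7.77, 8.02 and 8.03 on the Western diet in wild-type mice. Its spots were saturated on 1 of the former arrays and 4 of the latter, so a rise there would be understated. Knockout mice went from 4.53, 5.75, 3.82, 3.12 and 4.12 to 2.91, 1.98, 1.17, 1.36 and 0.79, all below the wild-type range. The interaction was -2.85 ± 0.62 (SE, n = 5, limma adjusted p 0.00229). Scd2, its paralog, was 3.08 higher in the knockout on chow, fell by 2.73 there on the Western diet and rose by 1.17 in the wild type, an interaction of -3.90 ± 0.38 (SE, limma adjusted p 1.36e-06). Mlxipl, which encodes the carbohydrate-sensing activator ChREBP, was at 5.48, 5.11, 5.34, 5.78 and 5.78 and then 5.86, 5.72, 5.53, 5.95 and 5.79 in wild-type mice. It was at 4.84, 5.43, 5.28, 5.23 and 5.19 and then 4.13, 3.72, 3.86, 3.97 and 3.91 in knockout mice, falling clear of all other groups only on the Western diet. Fasn, the fatty acid synthase, had -2.65 ± 0.72 (SE, limma adjusted p 0.0224) from 3, 3, 2 and 3 arrays per group, the others having outlier spots. It was not called in 7 of 34 alternative settings. Elovl6, Acss2, Fads1 and Slc25a1 were amplified, with interactions from -2.31 to -1.12. Acaca, Acly, Me1, Pklr and Gpam, also of this pathway, were not called by their brightest probe. A dimmer probe was called lower for Acaca, at -2.10 (limma adjusted p 0.0121), and for Acly, at -2.84 (limma adjusted p 0.0104).

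Bile acid genes followed the same direction. Of 24 tested, 15 were lower and 1 higher, beside 14.7% and 12.9% of all genes, and the median interaction was -0.969. Cyp7b1, the oxysterol hydroxylase of the alternative bile acid route, had the largest difference among those above background on all 20 arrays. It was at 7.16, 7.33, 7.00, 7.14 and 6.90 in wild-type chow mice and 5.94, 6.04, 6.21, 6.81 and 6.43 in wild-type Western mice. Knockout mice went from 6.24, 6.10, 6.99, 6.78 and 7.02 to 2.36, 1.51, 1.19, 2.02 and 1.42, far under every other mouse. The fall was 1.75-fold in the wild type and 30.3-fold in the knockout, and the interaction was -4.11 ± 0.32 (SE, n = 5, limma adjusted p 1.85e-07). It was called under all 34 alternative settings, as amplified in 17 and as gained in 17, since the small wild-type fall crossed the threshold. The conjugating enzymes Slc27a5 and Baat had interactions of -1.64 ± 0.21 (SE) and -1.48 ± 0.22 (SE), and the bile acid importer Slc10a1 had -2.38 ± 0.43 (SE). Abcc4, an exporter on the blood side, was the 1 member on the higher side, at 1.55 ± 0.24 (SE), with its other probe at 1.31 and not called. Cyp8b1, the sterol 12-hydroxylase, fell in both genotypes and was not called for the interaction. It was above background on only 1 Western array of each genotype, so no size is given.

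Fatty acid oxidation genes, many of them targets of the receptor PPAR alpha, barely moved in wild-type mice and fell in the knockout. Of 30 tested, 19 were lower and 0 higher, beside 14.7% and 12.9% of all genes, and 17 were gained, beside 12.4% of all genes gained downward, with a median interaction of -0.885. Cyp4a10, an omega-hydroxylase and a textbook PPAR alpha target, was at 4.07, 4.13, 4.13, 4.62 and 4.43 and then 4.21, 4.31, 4.31, 4.33 and 4.50 in the wild type. It went from 3.79, 4.96, 3.77, 3.94 and 4.06 to 0.43, -0.75, -0.56, 0.53 and -0.25 in the knockout, an 18.6-fold fall with no overlap, and the interaction was -4.28 ± 0.35 (SE, n = 5, limma adjusted p 1.91e-07). Its other probes gave -3.23, called, and -2.71, not called. Ehhadh, of peroxisomal oxidation, was reversed: 4.12, 4.24, 4.39, 4.50 and 4.52 became 5.19, 5.36, 5.65, 4.89 and 5.46 in wild-type mice. In knockout mice 4.88, 6.18, 4.58, 4.67 and 4.96 became 2.82, 2.31, 2.58, 3.54 and 2.87. The diets did not overlap in either genotype, and the interaction was -3.19 ± 0.37 (SE, limma adjusted p 8.59e-06). Ehhadh was classed as reversed in 19 of 34 alternative settings and as gained in 14. Knockout chow mouse 2 was the highest of its group for Cyp4a10, Ehhadh and Cyp4a14. Acadm, Cpt2, Decr1 and Eci1 of mitochondrial oxidation had interactions of -1.37, -1.18, -1.69 and -1.23. Cpt1a, the gate of that pathway, was not called, with a difference of 0.15 ± 0.34 (SE). Amino acid catabolism and urea cycle genes showed the same side, 13 lower and 0 higher of 24, beside 14.7% and 12.9% of all genes, with a median of -0.853, led by Tdo2, the tryptophan oxygenase, at -2.56 ± 0.47 (SE).

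Male-biased liver genes had the largest list median, -5.826, with 13 of 13 lower, beside 14.7% of all genes. The wild-type response had a median of -0.324 and the knockout response one of -4.924. Cyp4a12a, an arachidonic acid hydroxylase of male liver, changed by 0.15 in the wild type and by -7.75 in the knockout, an interaction of -7.90 ± 1.13 (SE, limma adjusted p 9.65e-05), and its probe may also bind its close copy Cyp4a12b. Keg1 had -5.83 ± 0.88 (SE) and C6, a complement component, had -2.34 ± 0.38 (SE). Elovl3 and Slco1a1 were above background on all arrays of the other groups but on only 1 of 5 knockout Western arrays, and Moxd1 on 0 of 5, so their size is not given as a fold. Female-biased genes were mixed, 5 higher and 3 lower of 16, beside 12.9% and 14.7% of all genes. The 3 lower genes were Cyp3a16, Cyp3a44 and Cyp3a41a, taken up again below. The list median of 0.734 turned negative with normexp background correction and when probes had to be above background on all arrays.

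Several detoxification genes rose in wild-type mice and had no called response in the knockout. Gsta2, a glutathione transferase, was at 0.01, 0.50, 0.97, 1.40 and 1.01 in wild-type mice on chow and at 4.42, 5.35, 3.27, 3.32 and 2.56 on the Western diet. Knockout mice were already at 3.90, 4.83, 3.42, 4.10 and 3.44 on chow and stayed at 3.90, 4.65, 3.87, 4.65 and 4.01. Wild-type chow mice stood alone, and the 3 other groups overlapped. The 8.06-fold wild-type rise met a knockout that was 8.94-fold higher on chow, and the interaction was -2.73 ± 0.60 (SE, n = 5, limma adjusted p 0.0023). Cyp3a16 was another form: 3.80, 2.85, 4.48, 4.22 and 4.39 on chow and 7.22, 7.42, 7.41, 6.42 and 6.81 on the Western diet in wild-type mice. In the knockout it was at 5.55, 5.54, 5.32, 6.82 and 5.92 and then 5.59, 5.43, 5.33, 5.99 and 4.86, between the wild-type groups except for 1 chow mouse that reached the upper one. The interaction was -3.50 ± 0.46 (SE, limma adjusted p 2.71e-05), and Cyp3a44 had -2.99 ± 0.37 (SE). Cyp3a16, Cyp3a44 and Cyp3a41a are the 3 lower members of the female-biased list above, so these are the same calls. Genes of the Cyp3a family are close copies that a probe may not tell apart, and the probes of Cyp3a11 and Cyp3a41a were saturated on all 5 wild-type Western arrays, so those 2 are given no size. Over the 24 xenobiotic genes tested, 9 were lower and 0 higher, beside 14.7% and 12.9% of all genes, with a median of -0.814. The knockout was higher on chow for 13 of the 24, beside 11.3% of all genes. Cyp1a2 differed from the lost genes: it fell by 0.97 in the wild type and by 3.83 in the knockout.

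Responses lost in the other direction were fewer. Igfbp1, an insulin-repressed binding protein of growth factors, fell by 2.45 in wild-type mice and changed by 0.77, not called, in knockout mice, an interaction of 3.22 ± 0.87 (SE, limma adjusted p 0.0116). Pparg, the receptor that drives fat storage, was at -0.05, 0.69, 0.29, 0.78 and -0.19 and then -1.01, -0.03, -1.04, -0.43 and -1.02 in the wild type. In the knockout it was at 1.39, 1.72, 1.56, 0.60 and 1.02 and then 1.97, 1.66, 1.68, 1.85 and 1.80, so the diets overlapped in both genotypes and the genotypes were separate on the Western diet. Its interaction was 1.54 ± 0.34 (SE, n = 5, limma adjusted p 0.00246).

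Lipid droplet genes were divided, 7 higher and 6 lower of 23, beside 12.9% and 14.7% of all genes. The list median of -0.102 turned positive with quantile normalisation and with the series matrix values. Cidec, which fuses droplets, was at -1.58, -0.07, -1.20, -0.79 and -1.40 and then -1.05, -0.51, -0.82, -0.82 and -1.61 in wild-type mice, and at -1.82, -0.41, -0.98, -1.41 and -0.53 in knockout chow mice. The knockout Western mice, at 1.58, 3.31, 2.58, 2.16 and 3.18, stood above all of these by a 12-fold rise, and the interaction was 3.55 ± 0.50 (SE, limma adjusted p 5.46e-05). Fabp4, a fatty acid carrier of fat cells and macrophages, was at 0.95, 1.16, 0.95, 1.12 and 1.32 and then 0.96, 1.55, 0.43, 1.17 and 0.76 in wild-type mice. It was at 2.29, 2.67, 2.31, 1.82 and 2.67 and then 4.55, 4.36, 4.39, 4.01 and 4.19 in knockout mice, higher than the wild type on both diets and highest on the Western one. Plin2, the coat protein of droplets, went from 8.08, 7.69, 7.82, 8.24 and 7.93 to 7.25, 7.31, 7.62, 7.76 and 7.31 in the wild type. In the knockout it went from 6.59, 6.30, 6.81 and 6.79 to 7.09, 7.51, 7.55, 7.21 and 7.49. The genotypes met on the Western diet after starting apart, an interaction of 1.24 ± 0.21 (SE, limma adjusted p 0.000318). On the lower side were Fitm1, Cideb, Lipe, Fitm2, Agpat2 and Gpat3.

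Many macrophage genes had a higher diet response in the knockout. Of the 23 pan-macrophage genes, 21 rose in knockout mice, beside 22.6% of all genes. In wild-type mice 0 were called, beside 3.25% of all genes called upward there, a share too low for this count to set the list apart. The median wild-type response of the list was 0.698, so a rise there is not excluded. Of 18 genes of lipid-associated macrophages, 14 were higher and 0 lower for the interaction, with a median of 3.774; of 23 pan-macrophage genes, 11 were higher and 0 lower, with a median of 1.481. Over all genes 12.9% were higher and 14.7% lower. All 18 lipid-associated members were above background on 4 or more knockout Western arrays, against 16 in knockout chow and 13 in wild-type chow mice. Some may thus have passed the filter only through the group where they are high. Trem2, a lipid-sensing receptor, was at -2.77, -1.91, -3.42, -2.61 and -3.87 and then -2.48, -1.46, -2.21, -1.03 and -2.60 in wild-type mice. Knockout chow mice ranged widely, at -0.09, -3.10, -1.93, -3.00 and 0.26, and the 3 knockout Western arrays with a value were at 5.15, 5.03 and 5.52, above all others. The interaction was 5.84 ± 0.91 (SE, limma adjusted p 0.000207). Cd9, a tetraspanin, was amplified, from 2.26, 2.25, 2.33, 2.19 and 2.42 to 3.49, 3.33, 3.11, 3.41 and 2.89 in the wild type. In the knockout it went from 2.43, 2.19, 1.74, 1.49 and 1.43 to 5.32, 5.38, 5.63, 4.87 and 5.11, a 10.6-fold rise against 1.95-fold, and the interaction was 2.45 ± 0.26 (SE, limma adjusted p 3.4e-06). Mmp12, a macrophage elastase, was not well above background on any wild-type array, and on the Western diet it was at least 83.6-fold higher in the knockout. The bound sets the knockout mean against the lowest signal of probes well above background, or the probe's own where that is higher.

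Of 11 markers of resident Kupffer cells, 3 were lower and 0 higher, beside 14.7% and 12.9% of all genes, a count too small to set the list apart, and the median was -0.986. Clec4f, their lectin, was at 3.03, 3.94, 3.06, 2.96 and 3.09 and then 4.76, 4.21, 3.13, 3.66 and 2.76 in wild-type mice. Knockout mice had -0.27, -4.25, -0.13, 0.46 and 0.89 and then -2.68, -2.87, -6.78, -4.45 and -5.18, below the wild type on both diets, with the chow mouse at -4.25 inside the Western range. The fitted interaction was -4.22 ± 1.18 (SE, limma adjusted p 0.0124). Its size is uncertain, since the probe was well above background on only 4 of 5 knockout Western arrays, and alternatives ranged from -6.22 to -2.12.

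Of 24 genes of stellate cells and scar matrix, 20 were higher and 0 lower for the interaction, beside 12.9% and 14.7% of all genes. All 20 were gained, as were 87.4% of all interaction genes. The list had a median interaction of 2.187 and median responses of 0.077 in wild-type and 2.273 in knockout mice. Col1a1, the chain of type I collagen, was at -1.18, -1.56, -1.69, -1.22 and -1.70 and then -0.23, 0.38, -1.47, -0.78 and -1.38 in the wild type. Knockout mice went from 1.12, -1.77, -0.69, -1.61 and 0.28 to 4.24, 4.95, 5.37, 4.11 and 4.68, a 36.8-fold rise with no overlap. The interaction was 4.43 ± 0.66 (SE, n = 5, limma adjusted p 9.63e-05), from a probe on chromosome 11 at 94767851 to 94767910 (mm8). Timp1, an inhibitor of matrix proteases, was at 0.83, 0.76, 0.61, -0.20 and 0.47, then 0.10, 0.58, 0.51, -0.38 and 0.18 in the wild type. It was at 0.01, -0.04, 0.07, 0.75 and -0.27, then 2.90, 4.19, 4.63, 2.81 and 3.53 in the knockout. Only the knockout Western mice stood apart, with an interaction of 3.80 ± 0.45 (SE, limma adjusted p 9.2e-06). Acta2, the smooth muscle actin of activated stellate cells, was not called by its brightest probe, at 0.34, while its dimmer probes gave 1.89 (limma adjusted p 0.00435) and 1.77, not called.

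Other cell markers are set beside these lists, and their part in the results was not tested. On a mean scale relative to wild-type chow mice, the 23 pan-macrophage markers stood at 3.79 to 4.19 in knockout Western mice, 0.54 to 2.59 in knockout chow mice and 0.01 to 1.37 in wild-type Western mice. The 15 hepatocyte markers stood at -1.07 to -0.72 in knockout Western mice, -0.46 to -0.10 in knockout chow mice and -0.44 to -0.14 in wild-type Western mice. Of these 15, 3 were lower for the interaction (Hnf4a, Cebpa, Ttr), beside 14.7% of all genes. A dimmer probe of Prox1, also of this list, was called lower, at -1.47 (limma adjusted p 0.00488). Its other probes, at -0.84 and -0.26, were not called. The list median of -0.223 changed sign with quantile normalisation and with normexp, reaching 0.03. On the same scale, cholesterol genes stood at -3.42 to -2.45 and male-biased genes at -6.51 to -4.19 in knockout Western mice. Neutrophil genes were higher in 5 of 10 and cholangiocyte genes in 8 of 12, with 0 lower in both, beside 12.9% and 14.7% of all genes. On 4 or more arrays of a group, 10 neutrophil members were above background in knockout Western mice. In knockout chow, wild-type Western and wild-type chow mice 5, 6 and 4 were. Members that pass the filter only through the knockout Western group can hardly be called lower, so the neutrophil count may be partly fixed by the filter. T and B cell genes were higher in 1 and lower in 3 of 14, and endothelial genes higher in 2 and lower in 3 of 15. Beside 12.9% higher and 14.7% lower of all genes, these counts are too small to set the lists apart. All 12 cholangiocyte markers were above background on 4 or more knockout Western arrays, against 10 on knockout chow arrays.

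**Figure D4:**
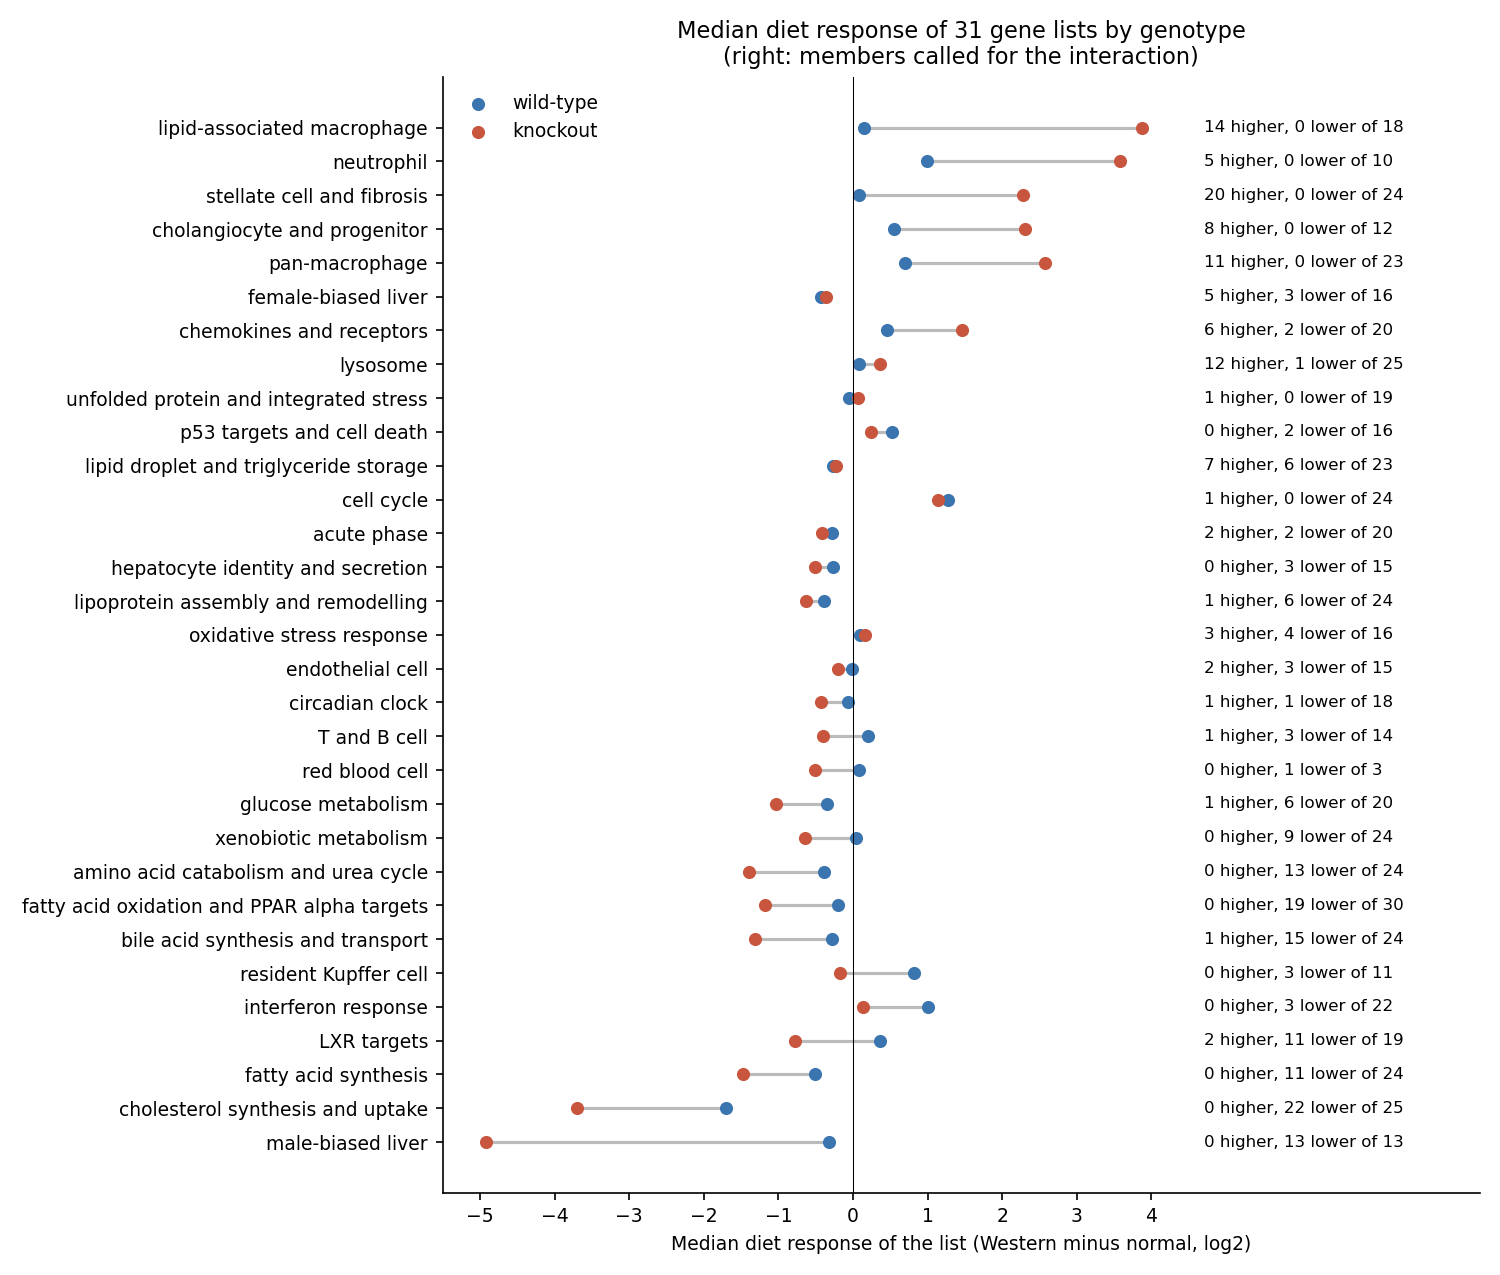
Median diet response (Western minus normal, log2) of 31 gene lists in wild-type and in knockout mice, with the number of members called for the interaction in each direction at the right. Lists are ordered by the median interaction, from male-biased liver at -5.826 to lipid-associated macrophage at 3.774; the lines between the points are longest for those 2 lists.

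Some lists had few calls for the interaction. Of 24 cell cycle genes, 10 rose in wild-type and 15 in knockout mice, beside 3.25% and 22.6% of all genes. For the interaction 1 (Mcm2) was called, beside 27.6% of all genes, and the median interaction of -0.168 changed sign with the setting. A dimmer probe of Mki67, another cell cycle gene, was called lower, at -1.79 (limma adjusted p 0.0246), and its brightest was not, at -0.72. Unfolded protein and integrated stress genes had 1 call of 19, Atf3 at 2.61 ± 0.66 (SE). Interferon response genes had 0 higher and 3 lower of 22 (Mx2, Ifi47, Igtp), beside 12.9% and 14.7% of all genes. Wild-type Western mice were spread from -0.23 to 3.09 for that list. Acute phase genes had 2 higher and 2 lower of 20, beside the same shares. A low count here says only that a difference was not called with 5 mice a group. Where a list above has 0 calls on a side, an unadjusted p under 0.05 (limma) was also seen in 0 members on that side, except for 1 higher fatty acid oxidation gene and 2 lower cell cycle genes.

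Blunted responses were called in 12 genes. Hsd17b6, a steroid dehydrogenase, went from 0.88, 1.29, 0.45, 1.05 and 2.25 to 3.56, 4.27, 4.60, 3.60 and 4.28 in wild-type mice, a 7.36-fold rise. In knockout mice it went from 0.66, 1.78, 1.56, 2.03 and 2.41 to 3.07, 2.28, 2.48, 2.75 and 2.46, a 1.89-fold rise whose groups overlapped. The interaction was -1.95 ± 0.46 (SE, n = 5, limma adjusted p 0.00413). Gsta4, another glutathione transferase, was at 0.04, 0.95, 0.78, 1.09 and 0.96 and then 3.02, 3.22, 2.93, 2.52 and 2.67 in the wild type. It was at 1.73, 1.98, 1.42, 2.05 and 2.02 and then 2.06, 2.47, 2.35, 2.49 and 2.49 in the knockout, between the wild-type groups on both diets, for an interaction of -1.58 ± 0.26 (SE, limma adjusted p 0.000261). Among genes reversed the other way, Nceh1, a cholesteryl ester hydrolase, fell by 1.02 in wild-type and rose by 1.18 in knockout mice. Slc1a5, a glutamine transporter, fell by 0.91 and rose by 1.13. Of 34 alternative settings, 28 classed Nceh1 as reversed and 6 as gained, against 21 and 12 for Slc1a5. Of the genes with neither response called, Mt1, a metallothionein, had responses of -1.73 and 1.86, not called, and an interaction of 3.58 ± 1.16 (SE, limma adjusted p 0.0282).

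The arrays sat on 6 slides, of which 3 held all 4 groups, so the interaction could be formed inside a single slide. Over the 4738 interaction genes with a value on all 3, 4486 (94.7%) had the same sign on every slide. These 12 arrays are among the 20 that called the genes, so the share describes how even the difference was and is no separate test of it. The share was 117 of 129 for lost genes, 199 of 211 for amplified genes and 60 of 60 for reversed genes. Abcg8 had -3.54, -2.01 and -4.01 and Tm7sf2 had -3.72, -2.86 and -3.41. Gsta2 varied more, at -4.40, -1.75 and -1.36, and Abca1 changed sign, at 0.11, -0.63 and -1.07. Col1a1 was at 4.13, 5.49 and 3.95. On the scaled linear signal, in place of the log2 scale, 99.1% of the interaction genes kept their sign. That share uses the same arrays and is no separate test either.

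**Figure D5:**
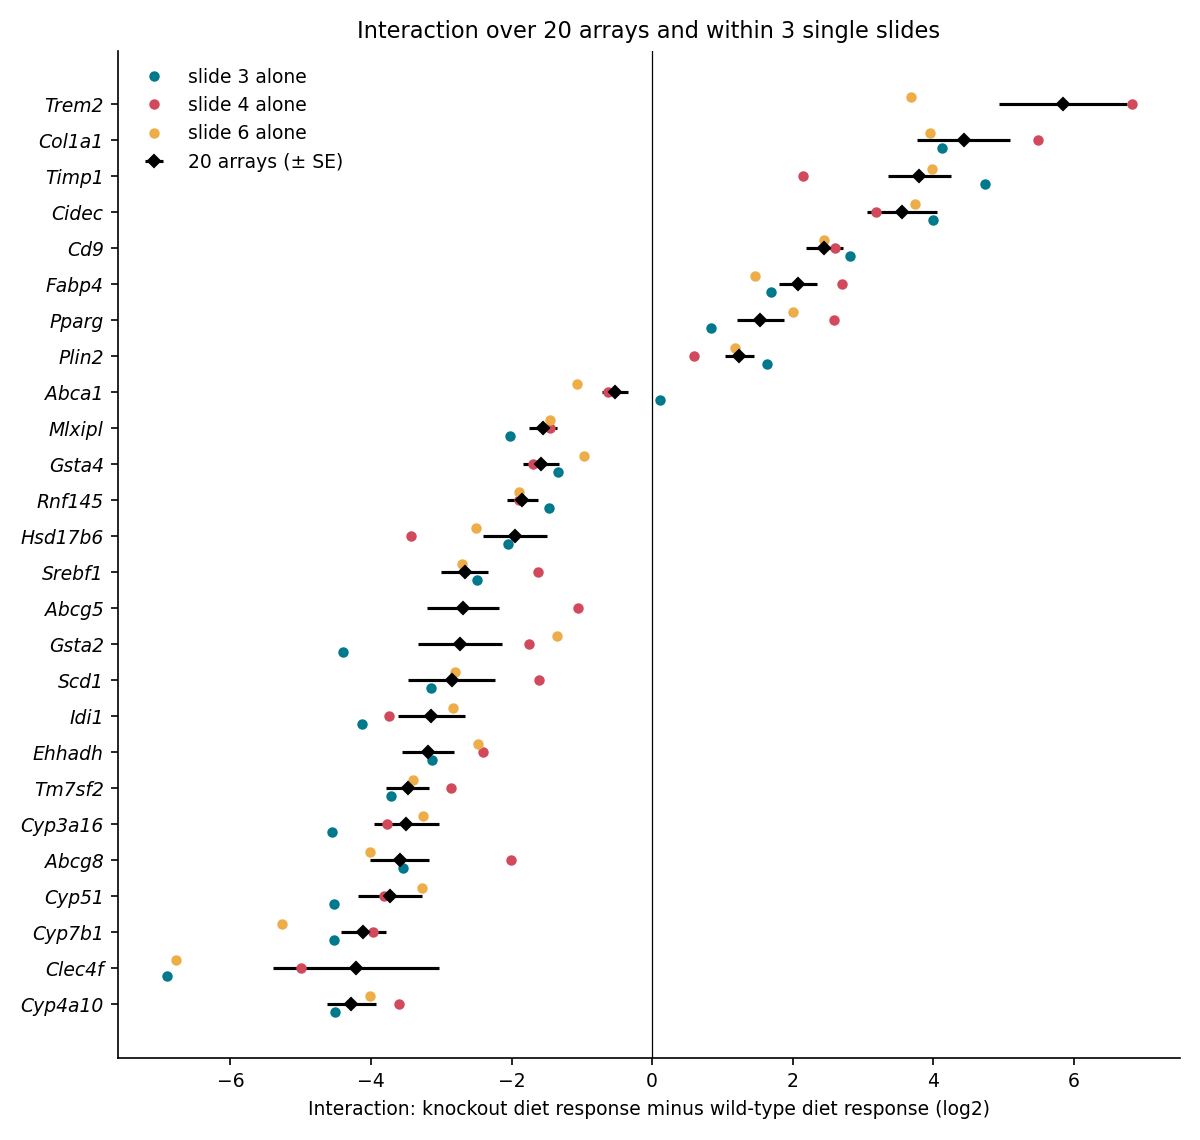
Interaction (knockout diet response minus wild-type diet response, log2) of 26 genes over all 20 arrays (diamonds, ± SE) and within each of the 3 slides that hold 1 array of every group (circles). Single slides lie on the same side of 0 as the diamond for every gene shown but Abca1, which crosses 0 with values of 0.11, -0.63 and -1.07.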

How the data were processed

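Liver RNA of 20 mice was hybridised to one-colour (Cy3) Agilent arrays. Per the file headers, the deposited intensity values were made with Feature Extraction 9.5.3.1. The authors' deposited series matrix holds log2 values of the same arrays and was used as an alternative. From the processed intensity, outlier spots and control spots were dropped, log2 was taken, the array's 75th percentile was subtracted and spots of a probe were averaged. The brightest probe stood for a gene. A gene was tested where 4 or more of the 5 arrays in any group read its probe well above background, using limma 3.58.1 (R 4.3.3) on the 4 group means, with Benjamini-Hochberg adjustment and a threshold of 0.05 for each contrast. Genes were named through RefSeq tables, and probe coordinates are the files' own (mm8). On simulated data, 43 of 50 lost, 39 of 50 gained, 38 of 50 amplified and 48 of 50 reversed genes were called for the interaction, among 17006 genes. The right class was given to 43 lost, 38 gained, 38 amplified and 40 reversed genes. The interaction was set to 2 for gained, -2 for lost and amplified and -4 for reversed genes, with independent normal noise and no slide effect. The real gained genes had smaller medians, 1.54 rising and -0.89 falling. The simulated rates are thus not the sensitivity for the real differences. Genes that could be named were the 8 largest interactions per class and direction among probes above background and unsaturated on all 20 arrays, the 3 largest per direction, the LXR target, fatty acid and cholesterol lists, and 6 called members of each other list. Any other gene was chosen after its values were seen. Members and lists were chosen with earlier results of these data known. Alternatives covered scaling, background correction, filters, probe choice, thresholds, slides, array weights and each mouse left out. The number of arrays limits the precision. Values of some single genes are not reported here, although counts and medians of lists include them.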

Additional observations from a re-analysis of the deposited data

Results flagged for a closer look

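Within groups of 5 mice, 9 single values lay far from the rest among 101 groups of 26 genes tested for this, where chance alone gives about 1 in 20. The gap to the next value, set against the whole range of the group, passed Dixon's limit for each. In wild-type mice these were Abca1 at 3.56 and Tm7sf2 at 5.04 on the Western diet, Rnf145 at 0.53 on chow and 0.78 on the Western diet, and Clec4f at 3.94 on chow. In knockout chow mice these were Srebf1 at 4.77, Ehhadh at 6.18, Cyp4a10 at 4.96 and Clec4f at -4.25. The last 3 came from knockout chow mouse 2.

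The diet responses of the genotypes differed by the interaction test of limma in 4839 genes, and in 61 of them both responses were called with opposite signs.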

How the results depend on the processing

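Numbers of called genes moved with the processing more than their direction did. Requiring an adjusted p under 0.01 left 2862 interaction genes, 1452 higher and 1410 lower (48 lost, 2649 gained, 61 amplified, 1 blunted, 19 reversed, 84 neither). Requiring at least 2-fold left 2811, 1153 of them lower (70 lost, 2476 gained, 145 amplified, 57 neither). Scaling to the median gave 3217, 1702 lower (78 lost, 76 amplified, 7 blunted, 29 reversed, 112 neither). Normexp background correction gave 1014, 636 higher and 378 lower (15 lost, 949 gained, 26 amplified, 2 blunted, 4 reversed, 18 neither), and moved the median interaction of all genes from -0.078 to -0.203. When normexp was fitted without outlier spots, a setting chosen after seeing the data, 4075 were called and 79 lost. With no filter on dim probes, 139 were amplified and 38 reversed; with array weights, 414 and 122. The 3 complete slides with slide as a block gave 2799, 1490 higher and 1309 lower (39 lost, 2611 gained, 40 amplified, 2 blunted, 9 reversed, 98 neither). Leaving out 1 mouse at a time gave 3984 to 5234 calls, 1922 to 2440 higher and 2062 to 2794 lower, with 95 to 140 lost, 3478 to 4560 gained, 124 to 282 amplified, 7 to 21 blunted, 37 to 82 reversed and 139 to 209 neither. The lowest total was without knockout Western mouse 3 and the highest without knockout Western mouse 4. Amplified genes were fewest without wild-type Western mouse 1, and reversed genes fewest without wild-type chow mouse 4. Of the 4839 calls, 4297 were shared with quantile normalisation, 4074 with the series matrix, 3138 with median scaling, 2460 with the 3 slides and 998 with normexp, all in the same direction. Among 262 genes open to naming, those that changed sign were Cux2 (-0.47), Cxcl2 (-0.18) and Bhlhe41 (-0.26) with normexp, Cux2 (-0.03) with normexp fitted without outlier spots, and Tshz2 (0) with the mean of all probes. Over all genes, the mean of all probes called 3 in the opposite direction, and 18 genes have probes called in opposite directions. The causes were not tested. Mice with the same replicate number did not deviate together (median correlation 0.01), so the numbers were not taken as pairs, and the replicate block gave 4754 calls; the slide block gave 5524. Arrays of 1 slide did deviate together (median correlation 0.36, against -0.05 for other pairs), which the 4-group model leaves out. Dim probes limit 493 of the interaction genes, whose probe no array in at least 1 group read above background.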
